A study of Mus musculus with 6 samples.

Results

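Stat3 and 3 other components of interleukin-6 family signalling were followed in mouse uterus with floxed or with deleted Stat3 alleles. The 4 genes were Stat3, the receptor gene Osmr, the kinase gene Jak2 and the transcription factor gene Cebpb. All probe sets (groups of short array probes that read the same transcript) annotated to these genes alone were taken, which gave 4 of the 987 genes and 5 of the 1382 probe sets in the table: 2 for Stat3 and 1 each for Osmr, Jak2 and Cebpb. RNA came from whole uteri of female mice 3.5 days post coitum, at the eve of implantation. In 3 arrays the mice carried floxed Stat3 alleles (Stat3 f/f, replicates 1, 2 and 4), and in 3 arrays the deleted alleles (Stat3 d/d, replicates 1, 2 and 3). The Cre driver behind the deletion, the exons it removes, the ages of the mice and whether an array holds 1 animal or a pool are not stated in the labels. The p-values therefore rest on the spread among these samples alone, and that spread may be technical.

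Cytokines of the interleukin-6 family bind receptors that share the gp130 chain, or in the case of oncostatin M a complex of gp130 with the OSMR chain. Janus kinases attached to these receptors phosphorylate STAT3, which then dimerises, enters the nucleus and binds DNA, with Cebpb and acute-phase genes among its known targets. In the mouse uterus the family is known through leukaemia inhibitory factor, a ligand needed for implantation, and STAT3 is activated in the uterine epithelium around the time of implantation.

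The table is itself a selection by this comparison: every one of its 1382 probe sets differed at least 1.5-fold between the group means, 0 had overlapping groups, and 100% passed an adjusted p of 0.05 (limma, Benjamini-Hochberg over the table). Of all probe sets, 32.6% passed with lower and 67.4% with higher signal in Stat3 d/d. That a member passed, or that its groups were apart, therefore adds nothing, and the sizes and per-array values are what the table can show. Median centring of each array in this table left all 451 lower probe sets past the threshold and 422 of the 931 higher ones, and quantile normalization left 451 and 436. The median change over the table, 0.70 on the log2 scale, became 0.24 and 0.25 respectively. Median centring lowers the log2 change of every probe set by the same amount, so every fall deepens and every rise shrinks. Of 14 stromal markers the table held Pgr and Dcn, both lower in Stat3 d/d. Over the 6 arrays the brightest Pgr probe set read 645 to 1613, while that of Dcn was dim at 9.59 to 34.9. Of 14 epithelial markers it held Cldn3 and Cldn4, both higher but without a call after either scaling, and of 6 smooth muscle and 6 endothelial markers 0 were in it. Of 7 ovary and oviduct markers it held Ovgp1, at 31.3, 21.8 and 7.42 in Stat3 f/f replicates 1, 2 and 4 against 344, 494 and 240 in Stat3 d/d replicates 1, 2 and 3, a log2 change of 4.23 (3.76 after median centring and 3.69 after quantile normalization, still past the threshold). Of 6 embryo markers it held Eomes, which natural killer cells also express. Its brighter probe set had a log2 change of 1.40 (0.94 and 0.93 after the scalings, also past the threshold). That probe set was dim, at 6.07 to 7.22 in Stat3 f/f and 16.3 to 25.4 in Stat3 d/d. The dimmer Eomes probe set changed by 0.90 and lost its call after both scalings (0.43 and 0.43). The part of oviduct or embryo RNA in the changes of the 4 genes was not tested. The labelled tissue could be checked only in part, and a gene outside the table was not analysed here.

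Stat3, Osmr and Cebpb transcripts were all lower in Stat3 d/d, and control through their promoters was not tested. The promoters of the targeted gene and of its known target Cebpb are shown. Each is the 250 bases before the RefSeq start of the gene on build GRCm38.p6, written 5′ to 3′ on the gene's own strand, with matches to the motifs named below in capitals. The Stat3 stretch is chr11:100939541-100939790 on the minus strand, and the Cebpb stretch is chr2:167688665-167688914 on the plus strand.
Stat3: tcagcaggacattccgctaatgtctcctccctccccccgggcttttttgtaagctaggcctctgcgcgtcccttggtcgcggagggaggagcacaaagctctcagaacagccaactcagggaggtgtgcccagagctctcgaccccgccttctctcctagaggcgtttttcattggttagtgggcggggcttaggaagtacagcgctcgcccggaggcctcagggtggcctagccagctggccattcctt
Cebpb: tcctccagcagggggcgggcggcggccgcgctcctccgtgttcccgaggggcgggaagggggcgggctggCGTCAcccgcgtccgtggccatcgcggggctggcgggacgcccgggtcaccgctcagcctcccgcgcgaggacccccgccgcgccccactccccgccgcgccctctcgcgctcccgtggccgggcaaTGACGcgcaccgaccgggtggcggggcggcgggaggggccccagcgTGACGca
The searched motifs were TTCNNNGAA, a form bound by STAT dimers, and TGACG, the core of the cyclic AMP response element, each on both strands with overlaps counted. TTCNNNGAA was not found in the 250 bases of any of the 4 genes, and 7.02% of 32851 RefSeq promoter stretches of that length held it. TGACG was found 3 times in the Cebpb stretch, beginning at -180, -53 and -7 relative to the start, with the match at -180 as the reverse complement CGTCA. It was not found in the Stat3, Osmr or Jak2 stretch. At least 1 TGACG stood in 17.8% of all stretches and 3 or more in 0.688%, with no matching of stretches for G and C content. The Cebpb stretch was 81.6% G and C and that of Jak2 80.8%, against 60.8% for Stat3, 66.0% for Osmr and a median of 52.4% over all stretches. A match is a description of these letters, not a binding site, and the absence of one says nothing of STAT3 at these genes.

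All 3 Stat3 d/d arrays had less Stat3, the targeted gene, and 41.0% of the signal of its brighter and 42.6% of that of its dimmer probe set remained. The brighter Stat3 probe set, 1460700_at, read 262, 356 and 243 in Stat3 f/f replicates 1, 2 and 4, and 121, 101 and 131 in Stat3 d/d replicates 1, 2 and 3 (normalized intensity, linear scale). Stat3 f/f replicate 2 stood highest, and the groups did not overlap: the lowest Stat3 f/f array was 1.86 times the highest Stat3 d/d array. Set against the Stat3 f/f mean of 287 ± 60.8 (SD, n = 3), the residual signal was 42.2%, 35.3% and 45.6% in Stat3 d/d replicates 1, 2 and 3. The change on the log2(intensity + 1) scale was -1.27 (SE 0.20, 95% interval -1.70 to -0.83; limma adjusted p = 0.000352).

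The second Stat3 probe set, 1426587_a_at, carries the suffix Affymetrix uses for probe sets that read several transcripts of the same gene. It read 237, 310 and 208 in Stat3 f/f replicates 1, 2 and 4, and 103, 104 and 114 in Stat3 d/d replicates 1, 2 and 3. Its residual signal was 41.0%, 41.4% and 45.3% of the Stat3 f/f mean in those 3 arrays, so that residual Stat3 lay between 35.3% and 45.6% over both probe sets. The log2 change was -1.20 (SE 0.19, 95% interval -1.62 to -0.79; limma adjusted p = 0.000355). Both probe sets put the Stat3 f/f arrays in the same order, with replicate 2 highest and replicate 4 lowest, and both put Stat3 d/d replicate 3 highest in its group. They differed in Stat3 d/d replicate 2, where the brighter probe set was 35.3% and the other 41.4% of its Stat3 f/f mean. The changes of the 2 probe sets differed by -0.06 on the log2 scale (exact two-sided permutation test, p = 0.7; 0.9 after adjustment over 4 pairs compared).

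Relative spread was wider where Stat3 was intact. The SD was 21.2% of the mean (Stat3 f/f) against 12.7% (Stat3 d/d) for the brighter probe set, and 20.9% and 5.54% for the other, with no test of that difference. Among the 451 probe sets that were lower in Stat3 d/d, 72 fell further than the brighter Stat3 probe set and 80 further than the other. The deleted gene was thus not among the deepest falls of the table. In whole uterus, fewer cells of a type and less RNA per cell cannot be told apart. Where the probes lie relative to the deleted part of Stat3 was not analysed, so the residual signal is not a measure of remaining functional transcript.

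**Figure D1:**
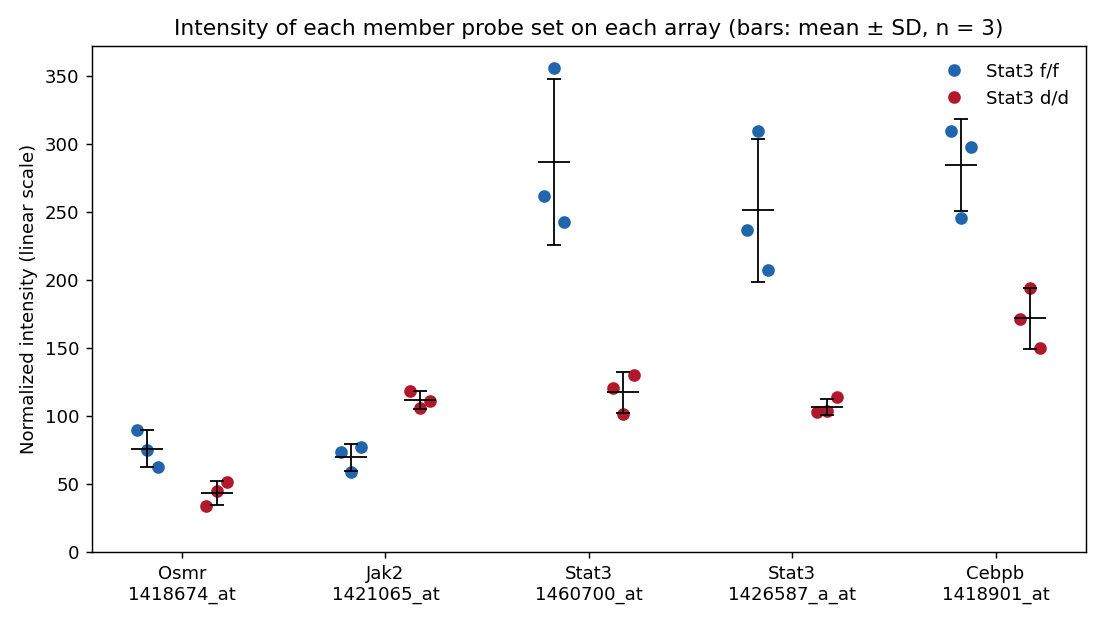
Normalized intensity on a linear axis for the 5 probe sets, ordered as receptor, kinase, Stat3 and Cebpb, with a point for each of 3 Stat3 f/f (blue) and 3 Stat3 d/d (red) arrays, horizontal lines for means and bars for the SD. Jak2 is the gene whose Stat3 d/d points lie above the Stat3 f/f points, and the widest gap between groups is that of Stat3.

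Osmr, the receptor chain that pairs with gp130 to bind oncostatin M, fell in Stat3 d/d. Its probe set, 1418674_at, read 90.1, 75.6 and 63.0 in Stat3 f/f replicates 1, 2 and 4, and 34.1, 45.4 and 51.5 in Stat3 d/d replicates 1, 2 and 3. The groups came close: the lowest Stat3 f/f array was 1.22 times the highest Stat3 d/d array, against 1.86 times for Stat3. The mean went from 76.2 ± 13.6 to 43.7 ± 8.83 (SD, n = 3), or 57.3% of the Stat3 f/f level, with single Stat3 d/d arrays at 44.7%, 59.6% and 67.6% in replicates 1, 2 and 3. The log2 change was -0.79 (SE 0.21, 95% interval -1.25 to -0.34; limma adjusted p = 0.00458). Centring each array on its median made it -1.26, by the shift that all probe sets share. Of the lower probe sets, 218 of 451 fell further, so the fall of Osmr lay near the middle of the falls in the table.

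Within the groups Osmr followed Stat3 in part. In Stat3 f/f it was highest in replicate 1, where Stat3 stood in the middle, and lowest in replicate 4, as Stat3 was. In Stat3 d/d it was lowest in replicate 1 and highest in replicate 3, the same order as the dimmer Stat3 probe set, while the brighter one was lowest in replicate 2 and also highest in replicate 3. The fall of Stat3 exceeded that of Osmr (difference of changes -0.47 on the log2 scale), with overlapping arrays (exact two-sided permutation test, p = 0.2; 0.6 after adjustment over 4 pairs). With 3 arrays against 3 this test cannot go below 0.1, the value it gave for the change of each of the 5 probe sets taken alone.

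Jak2, the Janus kinase that serves gp130 along with the receptors for growth hormone, prolactin and interferon gamma, was the exception and was higher in Stat3 d/d. Its probe set, 1421065_at, read 73.6, 58.9 and 77.7 in Stat3 f/f replicates 1, 2 and 4, and 119, 106 and 111 in Stat3 d/d replicates 1, 2 and 3. The Stat3 d/d arrays were alike, with an SD of 5.68% of their mean, and the lowest of them was 1.36 times the highest Stat3 f/f array. The mean rose from 70.1 ± 9.86 to 112 ± 6.36 (SD, n = 3), or 1.60-fold. The log2 change was 0.68 (SE 0.17, 95% interval 0.30 to 1.06; limma adjusted p = 0.00411).

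The rise of Jak2 was close to the median change of all probe sets in the table, 0.70, and 717 of the 931 higher probe sets rose further. It lost its call with both scalings: it was 0.21 after median centring (adjusted p = 0.276) and 0.31 after quantile normalization (adjusted p = 0.122). In replicate 2 of Stat3 f/f, which had the most Stat3, Jak2 was at its lowest. In Stat3 d/d replicate 2, where the brighter Stat3 probe set was at its lowest, Jak2 was also at the bottom of its group. By the dimmer Stat3 probe set, replicate 1 was lowest of the Stat3 d/d arrays (103), and Jak2 was highest there (119). In Stat3 f/f the order of Jak2 was the reverse of that of both Stat3 probe sets. Within Stat3 d/d the relation of kinase to STAT thus differed between the Stat3 probe sets. These orders were not tested.

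Cebpb, a basic leucine zipper transcription factor that is induced by interleukin-6 and needed for uterine decidualisation, fell in Stat3 d/d. Its probe set, 1418901_at, read 310, 246 and 298 in Stat3 f/f replicates 1, 2 and 4, and 172, 195 and 150 in Stat3 d/d replicates 1, 2 and 3. The lowest Stat3 f/f array was 1.27 times the highest Stat3 d/d array, so the groups were closer than those of Stat3. The mean went from 285 ± 33.9 to 172 ± 22.3 (SD, n = 3), or 60.5% of the Stat3 f/f level, and single Stat3 d/d arrays stood at 60.4%, 68.3% and 52.7% in replicates 1, 2 and 3. The log2 change was -0.72 (SE 0.18, 95% interval -1.12 to -0.33; limma adjusted p = 0.00363). It was -1.19 after median centring, by the same shared shift, and 275 of the 451 lower probe sets fell further.

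Within groups Cebpb stood opposite to the brighter Stat3 probe set in both arrays where that probe set was most extreme. Cebpb was lowest of the Stat3 f/f arrays in replicate 2, where Stat3 was highest. It was highest of the Stat3 d/d arrays in replicate 2, where the brighter Stat3 probe set was lowest. The dimmer Stat3 probe set was instead lowest in Stat3 d/d replicate 1 (103, against 104 in replicate 2). Cebpb was lowest of all in Stat3 d/d replicate 3, where Stat3 and Osmr were highest of their group. With 3 arrays in a group these orders are a description and were not tested. The fall of Stat3 exceeded that of Cebpb, with a difference of changes of -0.54 on the log2 scale (exact two-sided permutation test, p = 0.3; 0.6 after adjustment over 4 pairs), and the changes of Osmr and Cebpb differed by -0.07 (p = 0.9 before and after adjustment). Neither the larger size of the Stat3 fall nor the likeness of Osmr and Cebpb is thus established at this number of arrays.

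**Figure D2:**
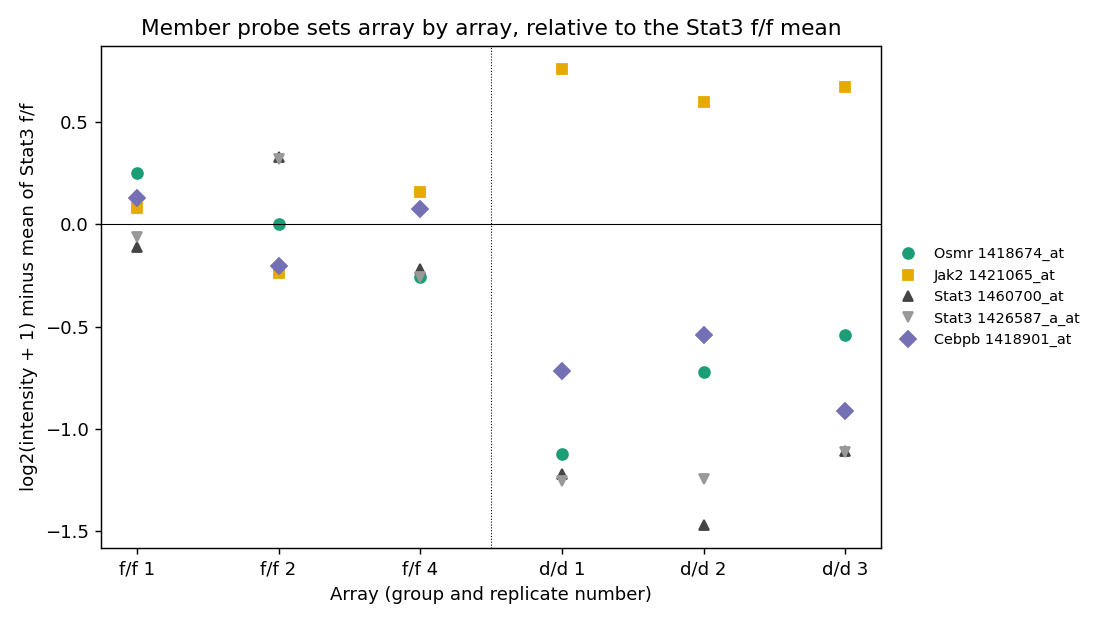
Each of the 6 arrays on the horizontal axis, with log2(intensity + 1) of the 5 probe sets minus their own Stat3 f/f mean on the vertical axis. Between groups Osmr, Stat3 and Cebpb move down and Jak2 up, while within groups the order of the probe sets changes from array to array, with Stat3 highest and Jak2 and Cebpb lowest in Stat3 f/f replicate 2.

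Most of the remaining pathway was outside the table. Of 10 ligands of the family, among them Lif, Il6, Il11 and Osm, 0 were in it. Osmr was the only one of 9 receptor genes, Jak2 the only one of 4 Janus kinases, Stat3 the only one of 7 STAT factors, and Cebpb the only one of 15 target transcription factors and of 7 genes of the C/EBP family list. Of 16 other receptors that signal through JAK2, 0 were in it. Counting each gene once, 11 of 115 listed pathway genes were in the table, of which 9 were lower and 2 higher in Stat3 d/d, with a median log2 change of -0.90. Without the 4 members these were 6 lower and 1 higher of 7, with a median of -0.97, against 0.70 over all probe sets. The share over all probe sets was 32.6% lower and 67.4% higher. Lcn2, Serpina3n, Ccnd1 and A2m were known from earlier results of these data to be lower, so these counts are not independent of the choice of list.

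Of 19 inhibitors and adaptors of the pathway, including the Socs and Pias genes, only Ptpn6 was in the table. Ptpn6 encodes SHP-1, a tyrosine phosphatase of blood cells that damps signalling by Janus kinases. It read 23.8, 22.8 and 16.9 in Stat3 f/f replicates 1, 2 and 4, and 51.7, 39.7 and 33.8 in Stat3 d/d replicates 1, 2 and 3. All 3 Stat3 d/d arrays were higher, and the log2 change was 0.94 (SE 0.21; limma adjusted p = 0.00221). Like Jak2 it lost its call with both scalings, at 0.47 after median centring (adjusted p = 0.0623) and 0.44 after quantile normalization (adjusted p = 0.0792). Leukocyte markers rose as well: 6 of 19 were in the table (Ptprc, Cd3g, Ncr1, Klrd1, Adgre1 and Itgax), all higher. Over all probe sets 67.4% were higher. The 6 markers were higher under both scalings too, where Adgre1 lost its call (0.62 and 0.65). Their summed intensity ran from 151 to 248 over the Stat3 f/f arrays and from 464 to 745 over the Stat3 d/d arrays, and both Ptpn6 and Ptprc were highest in replicate 1 and lowest in replicate 3 of Stat3 d/d. The largest part of that sum was Ptprc, at 81.6 to 145 in Stat3 f/f and 270 to 420 in Stat3 d/d. Of the defining markers, Cd3g (3.51 to 4.66), Itgax (4.56 to 6.43) and Ncr1 (8.78 to 10.3) were dim in Stat3 f/f. Cd3e and Csf1r were not in the table. Jak2 was also highest in Stat3 d/d replicate 1, but lowest in replicate 2. In Stat3 f/f it was highest in replicate 4 (77.7), where Ptprc was lowest (81.6). The part of leukocyte content in the rises of Ptpn6 and Jak2 was not tested.

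Among 30 other STAT3 target genes, 6 were in the table and all 6 were lower in Stat3 d/d. Over all probe sets 32.6% were lower, and Lcn2, Serpina3n, Ccnd1 and A2m were listed with their falls known. The lipocalin Lcn2, which binds bacterial siderophores, read 181, 98.8 and 212 in Stat3 f/f replicates 1, 2 and 4, and 21.1, 12.2 and 12.1 in Stat3 d/d replicates 1, 2 and 3. Its change, -3.33 (SE 0.30), was larger than that of any member. Like Cebpb, Lcn2 was lowest in replicate 2 among the Stat3 f/f arrays, where Stat3 itself was highest. Serpina3n, an acute-phase protease inhibitor, read 90.3, 116 and 18.7 in the Stat3 f/f arrays, and 10.0, 9.11 and 9.70 in those of Stat3 d/d. Its Stat3 f/f replicate 4 lay far below the other two, near the Stat3 d/d arrays. Saa1, a serum amyloid gene, was near the bottom of the scale, and its probe set carries the suffix for sequence shared between genes. It read 9.70, 9.98 and 4.81 in Stat3 f/f replicates 1, 2 and 4, and from 3.67 to 3.76 in Stat3 d/d. Unlike Lcn2, both Serpina3n and Saa1 had the order of Stat3 in Stat3 f/f, with replicate 2 highest and replicate 4 lowest.

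Lbp, the lipopolysaccharide-binding protein of the acute phase, fell on both of its probe sets. The brighter read 240, 303 and 423 in Stat3 f/f replicates 1, 2 and 4, and 218, 138 and 135 in Stat3 d/d replicates 1, 2 and 3, with a log2 change of -0.97 (SE 0.25). The dimmer changed by -1.19 (SE 0.29). A2m, alpha-2-macroglobulin, shared the high Stat3 f/f replicate 4: it read 444, 325 and 881 in the Stat3 f/f arrays, and 184, 116 and 184 in those of Stat3 d/d. Neither Stat3 nor Osmr was high in that array, where both were lowest of their group.

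Ccnd1, the cyclin that drives entry into the cell cycle, differed between its probe sets. The brighter, 1417420_at, read 377, 412 and 402 in the Stat3 f/f arrays, and 275, 267 and 249 in those of Stat3 d/d, a log2 change of -0.59 (SE 0.16). The dimmer, 1417419_at, read 171, 181 and 170 against 43.0, 41.2 and 40.2, a log2 change of -2.04 (SE 0.15). Both Ccnd1 probe sets were highest of the Stat3 f/f arrays in replicate 2, as Stat3 was. The difference in size between the 2 Ccnd1 probe sets was not tested.

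**Figure D3:**
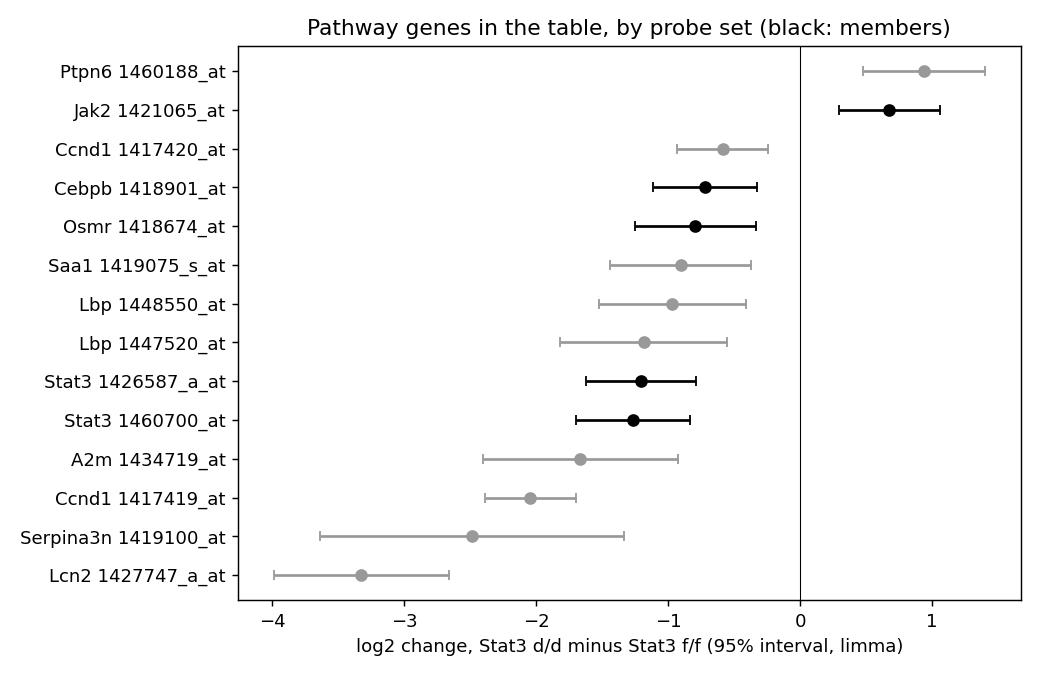
Log2 change from Stat3 f/f to Stat3 d/d with its 95% interval (limma) for each probe set of a listed pathway gene in the table, members in black and other genes in grey. Ptpn6 and Jak2 lie above 0 and all other probe sets below, from -0.59 for the brighter Ccnd1 probe set to -3.33 for Lcn2.

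The probe sets most like each member were found by the root-mean-square difference of the log2 profiles over the 6 arrays, each minus its own Stat3 f/f mean. Among 1189 probe sets with 1 gene symbol, those nearest to the brighter Stat3 probe set were of Mrgprf (0.06), Abhd1 (0.08), Ocel1 (0.12) and Fxyd2 (0.19 on each of its 2 probe sets), where the median over all was 1.42. The second Stat3 probe set stood at 0.10, so Mrgprf, an orphan receptor gene, and Abhd1, a hydrolase gene, were nearer to it than Stat3's own second reading. Mrgprf read 32.2, 49.2 and 30.6 in the Stat3 f/f arrays, and 15.6, 13.4 and 16.4 in those of Stat3 d/d, with the same high array as Stat3.

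Nearest to Osmr were Rgs4 (0.11), a regulator of G-protein signalling, Kcnma1 (0.11), a potassium channel gene, Cep164 (0.12), Fbn2 (0.14) and Ldb3 (0.15). The Rgs4 match was of a dim probe set, at 12.74 to 14.35 in Stat3 f/f. A brighter Rgs4 probe set changed by -1.17 and read 16.6, 19.9 and 21.9 in Stat3 f/f replicates 1, 2 and 4. That order was the reverse of the order of Osmr, so the likeness holds for the dim probe set only. Nearest to Jak2 were Mcur1 (0.05), Zfp943, Ptpre, Gpm6a and Pcm1 (0.07 each), and the median over all probe sets was lower for Jak2, at 0.53, than for any other member. Nearest to Cebpb were Adi1 (0.07), the claudin gene Cldn2 (0.09), Sh3gl3 (0.09), Agr2 (0.10) and Zfp868 (0.10). The Cldn2 and Agr2 matches were of dim probe sets, at 6.55 to 15.17 and 3.92 to 10.03 over the 6 arrays. A brighter Agr2 probe set, with a Stat3 f/f mean of 65.2, changed by -1.52. It was highest in replicate 2 of both groups, where Cebpb was lowest of Stat3 f/f and highest of Stat3 d/d. Osmr and Cebpb, although similar in size of change, thus had different nearest profiles, and no member was among the 5 nearest of another. With 6 arrays and a table selected on the group difference, these likenesses describe the arrays only.

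**Figure D4:**
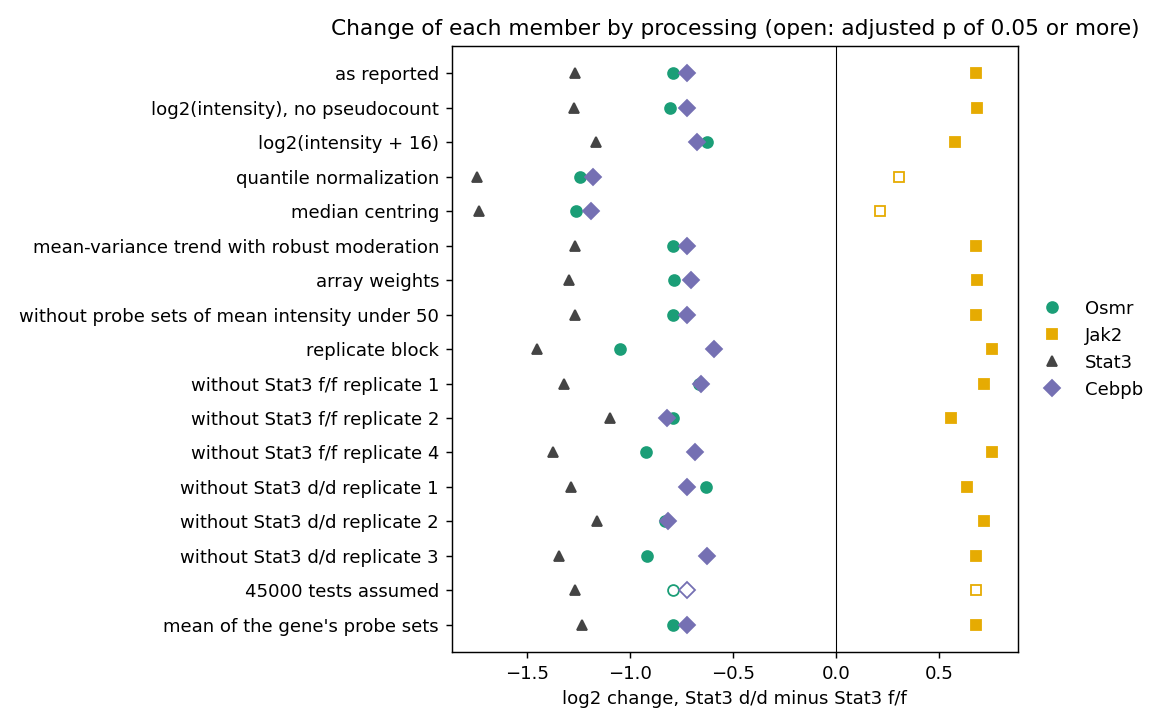
Log2 change of the 4 members (brightest probe set of each) on the horizontal axis under each way of processing the table on the vertical axis, with open symbols where the adjusted p was 0.05 or more. Every direction is kept, Jak2 moves towards 0 under both scalings, and Osmr, Jak2 and Cebpb are open when 45000 tests are assumed.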

How the data were processed

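The deposited table gives a linear intensity for each probe set on 6 Affymetrix arrays. The authors normalized them by RMA (robust multi-array average) per the submitters' processing notes, which give no version; the return to a linear scale and the selection of probe sets are not recorded in the sources used here. Groups come from source names and replicate numbers from titles in the labels. Names came from the annotation of the array platform (1191 with 1 gene, 57 with several, 134 unnamed), and the identifiers of all 5 member probe sets matched the RefSeq gene table of GRCm38.p6.

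All 1382 probe sets were fitted together as log2(intensity + 1) with limma 3.58.1 under R 4.3.3, by lmFit and then eBayes with group as the only term. P-values were adjusted by Benjamini-Hochberg across all of them, with calls at 0.05. A negative change means lower in Stat3 d/d. A gene with several probe sets is represented by the brightest over the 6 arrays. The fit was tested on simulated data. Figures were drawn with matplotlib 3.10.9.

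The members and lists were chosen with earlier results of these data known. Named genes were the members, listed pathway genes in the table and, for each member, the 5 nearest profiles. Alternatives were the pseudocount, scaling, variance model, weights for arrays, removal of dim probe sets, the replicate block, leaving out each array and averaging a gene's probe sets. Another, 45000 assumed tests, was chosen after seeing the data. The number of arrays limits the precision.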

Additional observations from a re-analysis of the deposited data

How the results depend on the processing

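The direction of all 4 members was kept under the 16 alternatives tried for each, and Stat3 passed the threshold in all of them, between -1.74 and -1.10. The scalings took the call from Jak2 (0.21 after median centring, 0.31 after quantile normalization) and moved the share of probe sets called from 100% to 63.2% and 64.2%. Under 45000 assumed tests, roughly what a whole array would hold, that share was 37.5%. Stat3 then kept an adjusted p of 0.0115, while Osmr (-0.79, adjusted p = 0.149), Jak2 (0.68, 0.134) and Cebpb (-0.72, 0.118) did not pass. Leaving out 1 array gave -1.38 to -1.10 for Stat3, -0.92 to -0.63 for Osmr, 0.56 to 0.76 for Jak2 and -0.82 to -0.63 for Cebpb. All of these passed the threshold, as did 97.5% to 99.6% of all probe sets, so passing says nothing particular to the members.

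The replicate block changed no call of a member (Stat3 -1.46, Osmr -1.05, Jak2 0.76, Cebpb -0.59) and left 92.9% of probe sets called. Numbers 1 and 2 alone are shared by both groups, so Stat3 f/f replicate 4 and Stat3 d/d replicate 3 drop out of that fit, which has 1 residual degree of freedom. Same-numbered arrays deviated together only weakly (r = 0.09 and 0.03 across probe sets, which are not independent), so the numbers were not taken as pairs. Averaging probe sets changes Stat3 alone, to -1.24. A table of selected probe sets cannot show which scaling to prefer.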
